A study of Mus musculus with 12 samples.

Results

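The 10 genes described here carry dietary fat through the absorptive cell of the gut, and they were followed in the ileum of mice given zinc and a glucocorticoid: Apob, Mttp, Apoa1, Apoa4, Apoc3, Fabp1, Fabp2, Mogat2, Dgat1 and Dgat2. They were chosen by name, as the rows of the count table whose Ensembl identifier maps to these symbols, and they are 10 of 54838 genes. All 10 were among the 15938 genes that passed the filter on low counts and entered the tests. RNA-seq was performed on bulk ileum of C57BL/6J mice, an inbred laboratory strain with no engineered allele in any group. The mice drank normal water or water with 25 mM ZnSO4 for 7 days, then received Dex or PBS, and the ileum was taken 2 h later. Dex is dexamethasone, a synthetic ligand of the glucocorticoid receptor (GR), given at 200 µg. The 4 groups of 3 libraries were water + PBS, water + Dex, ZnSO4 + PBS and ZnSO4 + Dex, so each drink was tested with and without Dex. The mice of every group were injected, and there was no uninjected group. Because the whole ileum wall was sampled, fewer cells of a type and less RNA per cell cannot be told apart.

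Fat that has been digested in the gut lumen enters the enterocyte as fatty acids and monoacylglycerol. Fatty acid binding proteins carry the fatty acids inside the cell, acyltransferases of the endoplasmic reticulum rebuild triglyceride, and the microsomal transfer protein loads that triglyceride onto apolipoprotein B to form a chylomicron, which leaves towards the lymph. Most fat is absorbed in the jejunum, and the ileum is better known for the uptake of bile acids.

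The 12 libraries held between 10760132 and 11827487 counts, and levels below are CPM, the counts of a gene per library total after scaling by the trimmed mean of M values (TMM). The 10 genes together took 0.624% to 1.57% of all counts in a library. ZnSO4 + Dex replicate 2 stood apart from the others in these genes. Over all tested genes it did not, as its lowest correlation with a library of its group was 0.969, against 0.968 to 0.980 for the others. The 10 genes summed to 5723 CPM there and to 9247 to 16345 CPM in the other 11 libraries, and 7 of the 10 genes had their lowest value of all 12 libraries in it (Apob, Mttp, Apoa1, Apoc3, Fabp2, Mogat2 and Dgat1). The summed level of 10 enterocyte markers, such as Vil1, Alpi and Anpep, was 11437 CPM in this library and 18712 to 25145 CPM in the others, with no marker at 0 in any library. Relative to the mean of the other 2 ZnSO4 + Dex libraries, the enterocyte marker sum was 0.520 times as high and 5 of the 10 genes were at a lower ratio: Apoa4 at 0.161 times, Apob 0.275 times, Apoa1 0.373 times, Mttp 0.450 times and Fabp2 0.498 times. The other 5 were at a higher one, with Mogat2 at 0.571 times, Dgat2 0.598 times, Apoc3 0.650 times, Dgat1 0.730 times and Fabp1 1.64 times. The part of enterocyte content in the low values of the 10 genes was not tested, and every call of the 10 genes that was gained or lost without this library is given below. The library was singled out after the values of these genes were seen. Calls gained without it are therefore not independent of that choice. Distal enterocyte markers, such as the bile acid carrier genes Fabp6 and Slc10a2, summed to 5822 to 10728 CPM and proximal markers to 973 to 2760 CPM. None was at 0, so RNA of both marker sets was counted in every library. Slc5a1 alone gave 1120 of the 1368 CPM of the proximal sum in water + PBS replicate 1. The proximal sum therefore does not show that proximal enterocytes were present. Smooth muscle markers summed to 2667 CPM in ZnSO4 + Dex replicate 2 and to 1280 to 2709 CPM in the others. Markers of hepatocytes summed to 490.3 CPM in water + Dex replicate 3, to 271 CPM in ZnSO4 + Dex replicate 2 and to 12.0 to 95.4 CPM in the other 10 libraries. Of the 8 markers, 2 were at 0 in water + Dex replicate 1 and none elsewhere. One marker, Tat, was 35.9 of the 41.9 CPM in that library. Tat lay at 19.2 to 36.1 CPM with water + PBS and at 2.07 to 3.26 CPM with ZnSO4 + PBS. The lower sums therefore do not measure liver RNA alone.

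**Figure D1:**
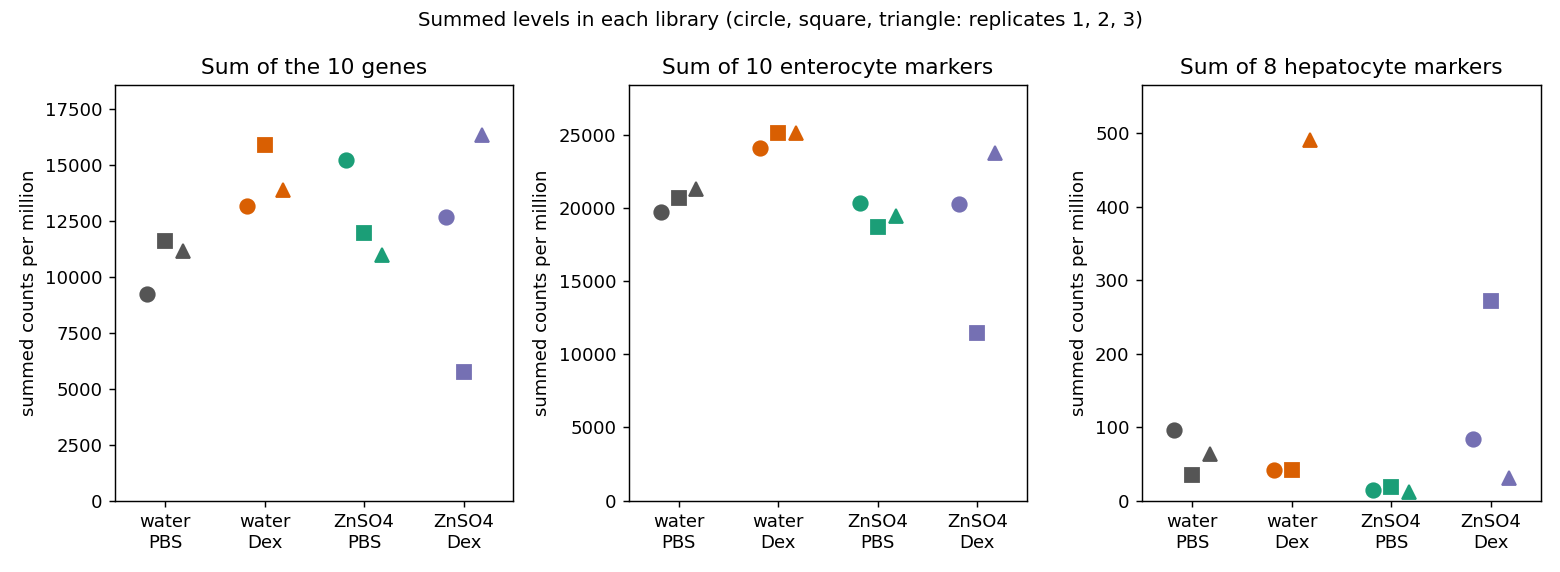
Summed CPM of the 10 fat absorption genes, of 10 enterocyte markers and of 8 hepatocyte markers in each of the 12 libraries (vertical axes, linear from 0), by group. In ZnSO4 + Dex the square, replicate 2, lies at 5723 CPM for the 10 genes and at 11437 CPM for the enterocyte markers, below all other libraries.

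On the GRCm38 assembly (the same sequence as mm10, which the submitters named), the 10 genes lie on 6 chromosomes. Apoa1, Apoc3 and Apoa4 are neighbours on chromosome 9, at chr9:46228580-46230466 (plus strand), chr9:46232933-46235636 (minus strand) and chr9:46240696-46243459 (plus strand). Dgat2 and Mogat2 are close on chromosome 7, at chr7:99153658-99182719 and chr7:99219084-99238619, both on the minus strand. Apob spans chr12:7977648-8016835 (plus strand), Mttp chr3:138089854-138144968 (minus), Fabp2 chr3:122895072-122899506 (plus), Fabp1 chr6:71199827-71205023 (plus) and Dgat1 chr15:76502015-76511953 (minus). All are protein coding, and none shared a stretch of 31 bases with another gene's transcript, so the fatty acid binding proteins and the acyltransferases can be told from their relatives. Exons of an annotated gene on the other strand overlap 69.8% of the exonic bases of Apoa4 (Gm10680 and Gm47528), 9.49% of those of Mttp (Gm43691 and Trmt10a) and 3% of those of Mogat2 (Gm45012). The strand setting of the read counting is not given in the sources used here. Gm10680 had 0 counts and Gm47528 at most 9 counts in any library, against a lowest value of 66 counts (5.37 CPM) for Apoa4. Because the strand setting is not given, these counts do not show whether the overlap affected the level of Apoa4, here or per length.

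Promoter windows of 300 bases, 250 before and 50 after the RefSeq start site, were found in the RefSeq table (GRCm38.p6) for 6 of the 10 genes: Apob, Mttp, Apoa1, Apoa4, Fabp1 and Fabp2. Apoc3, Mogat2, Dgat1 and Dgat2 had no entry. The windows of Apob and Mttp are shown because these 2 genes build the particle together and both separated between the Dex and PBS groups in water, and that of Apoa4 because its levels spread most between libraries. Capitals mark every match to one of 10 motifs searched on both strands. The RefSeq starts of Apob, Mttp and Apoa4 lie inside the gene bounds given above.
Apob, chr12:7977427-7977726, plus strand: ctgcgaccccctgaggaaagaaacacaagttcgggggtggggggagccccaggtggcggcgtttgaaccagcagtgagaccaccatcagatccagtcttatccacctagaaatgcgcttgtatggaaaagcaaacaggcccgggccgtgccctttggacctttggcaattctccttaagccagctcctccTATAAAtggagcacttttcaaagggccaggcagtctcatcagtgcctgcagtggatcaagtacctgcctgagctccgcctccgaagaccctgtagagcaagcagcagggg
Mttp, chr3:138143369-138143668, minus strand: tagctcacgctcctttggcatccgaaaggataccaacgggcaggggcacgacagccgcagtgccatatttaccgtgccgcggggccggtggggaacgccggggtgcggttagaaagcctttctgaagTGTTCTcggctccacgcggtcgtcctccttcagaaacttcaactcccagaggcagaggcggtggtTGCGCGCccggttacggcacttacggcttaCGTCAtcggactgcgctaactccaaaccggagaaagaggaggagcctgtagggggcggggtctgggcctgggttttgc
Apoa4, chr9:46240594-46240893, plus strand: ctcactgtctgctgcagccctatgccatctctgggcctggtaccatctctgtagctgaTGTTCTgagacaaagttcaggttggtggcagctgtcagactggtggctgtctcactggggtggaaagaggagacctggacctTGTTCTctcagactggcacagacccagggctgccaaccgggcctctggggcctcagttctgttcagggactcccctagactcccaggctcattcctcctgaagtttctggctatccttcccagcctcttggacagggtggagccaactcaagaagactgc
The palindromic glucocorticoid response element, which is AGAACA, a gap of 3 bases and the reverse complement of AGAACA, was in none of the 6 windows and in 3 of all 32851 windows of the table. Its arm AGAACA alone, written TGTTCT where it lies on the other strand, was in 3 of the 6 windows (Mttp, Apoa4 and Fabp1) and in 19% of all windows, and Apoa4 held 2 copies, at 192 and 110 bases before the start. The other capitals above are the TATA box TATAAA in Apob (13.6% of all windows), and in Mttp the metal response core TGCGCNC (15.4%) and the cyclic AMP response core TGACG (20.8%), which is read on the reverse strand as CGTCA. The metal response core TGCACNC was in the Fabp2 window and in 12.6% of all windows. AGTCCA, the short core of an HNF4 site, was in the windows of Apoa1 and Fabp1 and in 14.1% of all, and TATAAA was also in that of Fabp1. The longer HNF4 core CAAAGTCCA (0.475% of all windows), the direct repeat of AGGTCA with a gap of 1 base (0.0396%) and the GATA site AGATAA (11.2%) were in none of the 6. Only AGTCCA and the longer HNF4 core, and AGAACA and its palindrome, overlap each other as motifs. These matches describe letters in a short window and do not show binding.

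Measured per length, as CPM per kilobase of exon averaged over the 12 libraries, Apoa1 and Fabp2 were by far the most abundant of the 10 genes. Apoa1, the main protein of high density lipoprotein, reached 3912 CPM per kilobase (rank 13 of 15934 genes) and Fabp2, the intestinal fatty acid binding protein, 3157 (rank 14). Apob followed at 202, Mttp at 138, Mogat2 at 114, Dgat1 at 86.5, Dgat2 at 60.3, Apoa4 at 39.4, Apoc3 at 30.7 and Fabp1, the liver form of the fatty acid binding protein, at 9.16 (rank 5116). Only Fabp2 and Apob were neighbours with ranges that did not overlap. Apob exceeded Mttp and Apoc3 exceeded Fabp1 in 12 of 12 libraries although their ranges overlapped. The other neighbours changed places in some libraries: Apoa1 exceeded Fabp2 in 10 of 12 libraries, Mttp exceeded Mogat2 in 9, Mogat2 exceeded Dgat1 in 11, Dgat1 exceeded Dgat2 in 10, Dgat2 exceeded Apoa4 in 11 and Apoa4 exceeded Apoc3 in 8. Apoa4 was the most variable gene, with a highest library 28.0 times its lowest, and Dgat1 the least, with 1.57 times.

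**Figure D2:**
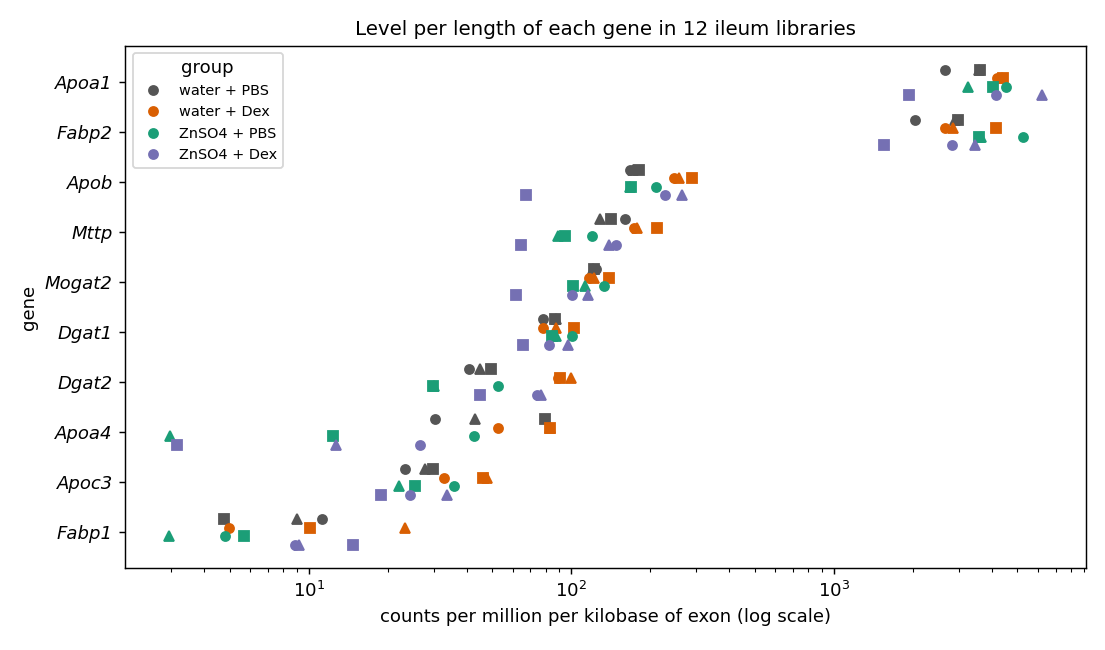
Level of each gene per length (horizontal axis, CPM per kilobase of exon, log scale) in each of the 12 libraries, coloured by group, with circle, square and triangle for replicates 1, 2 and 3. The genes run from Apoa1, with a mean of 3912, down to Fabp1, with a mean of 9.16, and the points of Apoa4 are spread furthest.

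The effect of Dex in mice on normal water came first. Of the 10 genes, 1 was called, meaning an adjusted p under 0.05 over all 15938 genes by edgeR's quasi-likelihood test. This was Dgat2, which rose, and 9.93% of all tested genes were called in this comparison. With the further cut-off of a log2 fold change (LFC) above 0.8, Dgat2 stayed among the upregulated genes, which were 2.79% of all. The LFC was above 0 for 10 of 10 genes, with a median of 0.46, against a median of -0.01 and 48.0% above 0 for all tested genes. In 5 genes (Apob, Mttp, Apoa1, Apoc3 and Dgat2) the 3 Dex libraries all lay above the 3 PBS libraries, and groups did not overlap in 29.7% of all tested genes. The summed enterocyte markers moved the same way, from 20573 ± 783 CPM (SD, n = 3) to 24790 ± 599 CPM, a ratio of 1.20. When libraries were scaled to these markers, the median of all genes shifted by -0.27, the LFC of Dgat1 became -0.18 and that of Mogat2 -0.23. The median of the 10 genes was then 0.19, still 0.47 above that of all genes. Scaling multiplies all genes of a library by the same factor, so this difference could hardly change. It does not address enterocyte content, whose part was not tested. Without ZnSO4 + Dex replicate 2, Apob was called as well, against 11.4% of all genes. That library is in neither group compared here and enters through the shared filter, scaling and estimate of spread. In a fit of the water libraries alone, Apob, Apoc3 and Dgat2 were called, against 10.5% of all genes.

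With PBS, ZnSO4 was followed by no call among the 10 genes (4.66% of all genes were called), and 1 of the 10 had an unadjusted p under 0.05 by edgeR, as 19.8% of all genes did. DESeq2 called 0 of them too, and 6.92% of all genes. The median LFC was -0.02, against -0.01 for all genes. Fabp2 lay higher and Mttp lower in all 3 ZnSO4 libraries, and groups did not overlap in 25.3% of all genes. Without ZnSO4 + Dex replicate 2 Mttp was called, with 6.19% of all genes.

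Under Dex, ZnSO4 also gave no call by edgeR (4.37% of all genes were called), with 5 of the 10 genes at an unadjusted p under 0.05, as 19.1% of all genes were. DESeq2 called 1 of the 10 and 6.44% of all genes. It was Apoc3, with an LFC of -0.72 and an adjusted p of 0.043. The LFC was below 0 for 10 of 10 genes, with a median of -0.48 against 0.01 for all genes. Mttp, Apoa4, Mogat2 and Dgat2 were lower in each of the 3 ZnSO4 + Dex libraries than in any water + Dex library, and groups did not overlap in 25.9% of all genes. The library that stood apart moved these values unequally. Without it, 8 of 10 LFCs were below 0, with a median of -0.27, and no member was called (3.34% of all genes). The LFCs of Apob, Mogat2, Dgat2 and Fabp2 became -0.11, -0.22, -0.31 and -0.04, that of Apoa1 turned to 0.26 and that of Dgat1 to 0.00, while Mttp stood at -0.40, Apoc3 at -0.54, Apoa4 at -1.89 and Fabp1 at -0.51. Scaled to enterocyte markers, the median of all genes moved by 0.55, and the LFCs of Apoa1, Dgat1, Fabp1 and Fabp2 were above 0. The median of the 10 genes was then -0.03. That median minus the median of all genes was -0.59, against -0.48 with TMM. All genes of a library share the scaling factor, so this difference does not address enterocyte content.

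In mice on ZnSO4, Dex was followed by 1 call, again Dgat2 upwards (13.7% of all genes were called, and 3.41% were called upwards with an LFC above 0.8, Dgat2 among them). The median LFC of the 10 genes was -0.04, against 0.01 for all genes. Fabp1 lay higher and Fabp2 lower in all 3 Dex libraries, and groups did not overlap in 29.1% of all genes. Without ZnSO4 + Dex replicate 2, Mttp was called upwards beside Dgat2 (11.5% of all genes). In the mice that received both, set against water + PBS, 0 of the 10 genes were called by edgeR (23.3% of all genes were), Apoa4 and Dgat2 had p under 0.05 before adjustment (36.0% of all genes did), and DESeq2 called 0 (22.2% of all genes). Apoa4 and Mogat2 did not overlap and were lower, where 36.9% of all genes did not overlap. Without the library that stood apart, Apob, Apoa1 and Dgat2 were called upwards (20.0% of all genes). The interaction, which asks whether Dex acted differently in the 2 drinks, gave 0% of all genes at an adjusted p under 0.05 by edgeR and 0 genes by DESeq2. Before adjustment, p was under 0.05 in 794 genes by edgeR (4.98% of all), and in Apoc3 and Fabp2 of the 10, and leaving out ZnSO4 + Dex replicate 2 also gave 0% of all genes. The LFCs of ZnSO4 under Dex and of Dex in water share the water + Dex libraries, so their opposite signs are not separate observations.

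**Figure D3:**
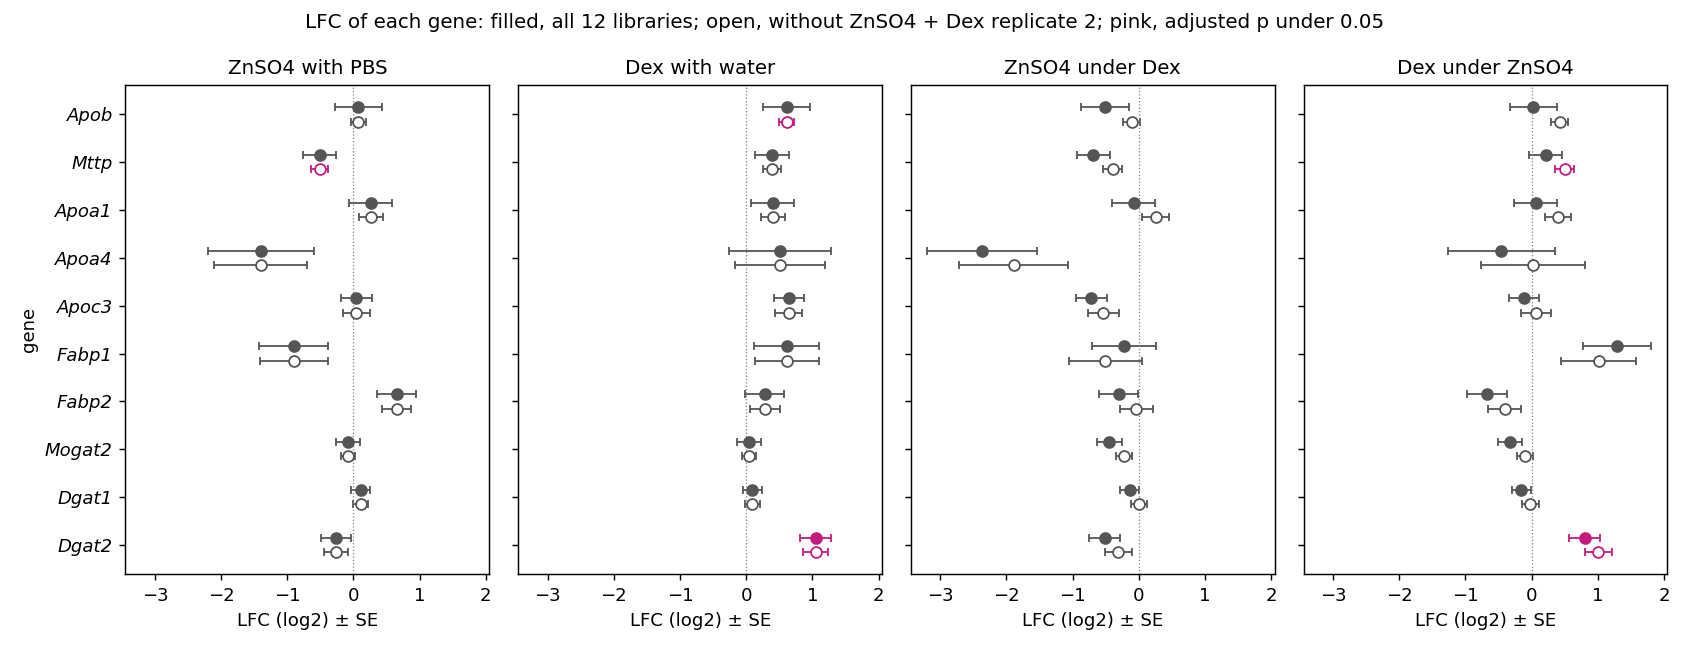
LFC of each gene (horizontal axis, log2, bars are SE) in 4 comparisons, with all 12 libraries (filled) and without ZnSO4 + Dex replicate 2 (open). Pink marks an adjusted p under 0.05: Dgat2 at 1.05 with Dex in water and 0.80 with Dex under ZnSO4 in all libraries, and Apob, Mttp and Dgat2 in the smaller set.

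The particle proteins are described first. Apob encodes apolipoprotein B, the structural protein of the chylomicron, of which each particle carries a single copy. Its levels were 2325, 2526 and 2394 CPM with water + PBS, 3431, 4028 and 3596 CPM with water + Dex, 2934, 2364 and 2338 CPM with ZnSO4 + PBS, and 3169, 941 and 3672 CPM with ZnSO4 + Dex. All 3 water + Dex libraries exceeded every PBS library of either drink, and the ZnSO4 + Dex libraries split, with 1 inside the water + Dex range, 1 just below it and 1 below all other libraries. With Dex in water the LFC was 0.61 (SE 0.36, adjusted p = 0.361), and without ZnSO4 + Dex replicate 2 it was 0.61 (SE 0.12, adjusted p = 0.00645). The fitted coefficient of variation between libraries fell from 0.300 to 0.101 when that library was left out. The Dex effect under ZnSO4 went from an LFC of 0.03 (SE 0.36) to 0.43 (SE 0.13, adjusted p = 0.0616) in the same step. ZnSO4 with PBS gave an LFC of 0.08 (adjusted p = 0.930).

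Mttp encodes the large subunit of the microsomal triglyceride transfer protein, which moves lipid onto apolipoprotein B. It measured 997, 884 and 799 CPM with water + PBS, 1081, 1321 and 1109 CPM with water + Dex, 742, 589 and 551 CPM with ZnSO4 + PBS, and 918, 400.5 and 862 CPM with ZnSO4 + Dex. Each ZnSO4 + PBS library was below each water + PBS library, and each water + Dex library above it. ZnSO4 with PBS gave an LFC of -0.51 (SE 0.25, adjusted p = 0.294), which became -0.51 (SE 0.13, adjusted p = 0.0438) without ZnSO4 + Dex replicate 2. Dex in water gave 0.39 (adjusted p = 0.403, or 0.0815 without that library). Dex under ZnSO4 gave 0.21 (adjusted p = 0.654) with the library and 0.50 (SE 0.14, adjusted p = 0.0452) without it.

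Apoa1 measured 3276, 4473 and 4424 CPM with water + PBS, 5196, 5460 and 5414 CPM with water + Dex, 5604, 4980 and 3999 CPM with ZnSO4 + PBS, and 5141, 2392 and 7670 CPM with ZnSO4 + Dex. The water + Dex libraries were close together and above water + PBS, whereas ZnSO4 + Dex held both the lowest and the highest library of all 12. The LFC was 0.40 with Dex in water (SE 0.33, adjusted p = 0.521), 0.26 with ZnSO4 and PBS (adjusted p = 0.709) and 0.32 with both treatments against water + PBS (adjusted p = 0.519). The last value rose to 0.66 (SE 0.20, adjusted p = 0.0421) without ZnSO4 + Dex replicate 2.

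Apoa4, an apolipoprotein made mostly by the small intestine that rises there on a fatty meal, measured 55.1, 145 and 78.4 CPM with water + PBS, 95.8, 151 and 150.2 CPM with water + Dex, 77.7, 22.4 and 5.37 CPM with ZnSO4 + PBS, and 48.2, 5.74 and 23.1 CPM with ZnSO4 + Dex. Every ZnSO4 + Dex library was below every water library, while 1 ZnSO4 + PBS library lay inside the water + PBS range. The differences were large and uncertain. ZnSO4 under Dex gave an LFC of -2.37 (SE 0.83, adjusted p = 0.140) and ZnSO4 with PBS -1.40 (SE 0.80, adjusted p = 0.367), and without ZnSO4 + Dex replicate 2 these were -1.89 (adjusted p = 0.288) and -1.40 (adjusted p = 0.282). With the libraries left out in turn, the LFC of ZnSO4 with PBS ran from -2.73 without ZnSO4 + PBS replicate 1 to -0.89 without ZnSO4 + PBS replicate 3, and was -0.92 without water + PBS replicate 2. Its coefficient of variation between libraries was 0.667, against 0.191 in common for all genes.

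Apoc3, the gene between Apoa1 and Apoa4, encodes an inhibitor of lipoprotein lipase. It measured 23.6, 30.2 and 28.2 CPM with water + PBS, 33.2, 46.7 and 48.3 CPM with water + Dex, 36.3, 25.7 and 22.5 CPM with ZnSO4 + PBS, and 24.7, 19.2 and 34.3 CPM with ZnSO4 + Dex. Water + Dex was above water + PBS in all 3 libraries, and the ZnSO4 groups overlapped both. The highest Apoc3 library, water + Dex replicate 3, had the most hepatocyte marker RNA (490.3 CPM). The lowest, ZnSO4 + Dex replicate 2, had the next most (271 CPM). The part of liver RNA in the levels of Apoc3, Apob and Apoa1 was not tested. Dex in water gave an LFC of 0.64 (SE 0.23, adjusted p = 0.113), which was 0.0495 in the fit of the water libraries alone and 0.0725 without ZnSO4 + Dex replicate 2. ZnSO4 under Dex gave -0.72 (SE 0.23, adjusted p = 0.113), and Dex under ZnSO4 -0.11 (adjusted p = 0.806), which were -0.54 (adjusted p = 0.284) and 0.07 (adjusted p = 0.906) without that library.

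**Figure D4:**
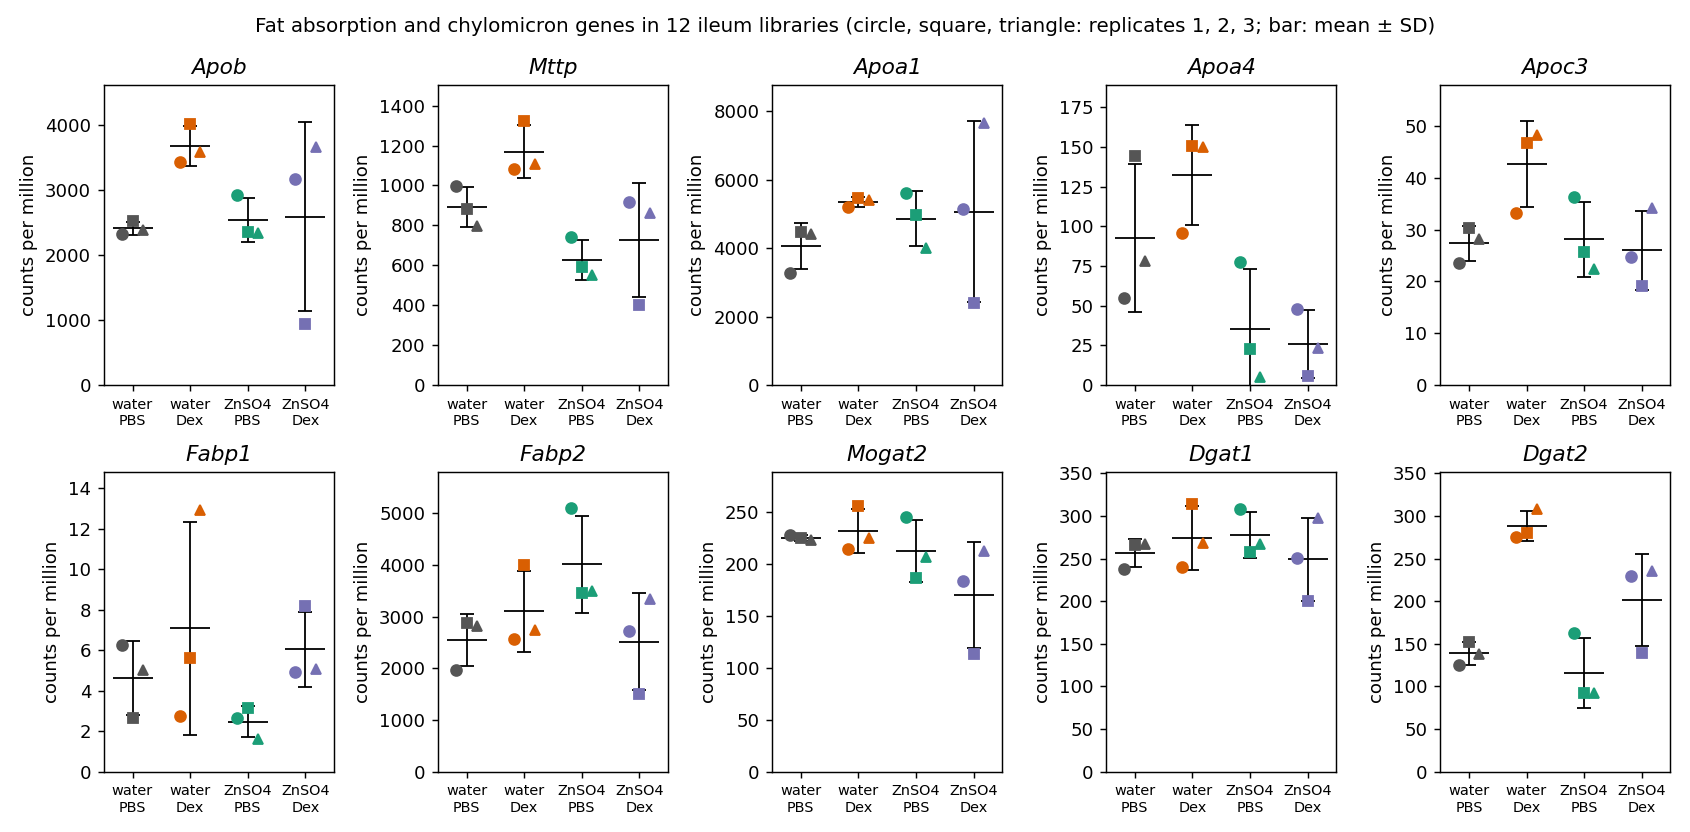
CPM of each of the 10 genes (vertical axes, linear from 0) in the 4 groups, with circle, square and triangle for replicates 1, 2 and 3 and a bar for the mean ± SD. Dgat2 lies at 275 to 308 CPM in the 3 water + Dex libraries and at 126 to 152 CPM in water + PBS, and the square of ZnSO4 + Dex is the lowest point of 7 panels. The lower bar of Apoa4 in ZnSO4 + PBS runs below 0 and is cut off.

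The 2 fatty acid binding proteins differed in level and in pattern. Fabp2 measured 1971, 2878 and 2807 CPM with water + PBS, 2569, 4002 and 2744 CPM with water + Dex, 5092, 3447 and 3497 CPM with ZnSO4 + PBS, and 2713, 1504 and 3334 CPM with ZnSO4 + Dex. The 3 ZnSO4 + PBS libraries lay above all water + PBS and all ZnSO4 + Dex libraries. ZnSO4 with PBS gave an LFC of 0.65 (SE 0.30, adjusted p = 0.248) and Dex under ZnSO4 -0.67 (SE 0.30, adjusted p = 0.173), and without ZnSO4 + Dex replicate 2 these were 0.65 (adjusted p = 0.116) and -0.41 (adjusted p = 0.375). Relative to the summed enterocyte markers, Fabp2 was 12.4% ± 2.09 (SD, n = 3) with water + PBS and 20.5% ± 3.96 with ZnSO4 + PBS, and 12.5% ± 2.96 and 13.5% ± 0.455 in the water and ZnSO4 groups with Dex. Its interaction had an LFC of -0.96 (SE 0.42, unadjusted p = 0.0422, adjusted p = 0.952), or -0.69 (unadjusted p = 0.0633) without that library.

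Fabp1, which is abundant in liver and in the upper small intestine, was the scarcest of the 10 genes, with 20 to 136 counts in a library. It measured 6.24, 2.65 and 5.01 CPM with water + PBS, 2.74, 5.60 and 12.9 CPM with water + Dex, 2.65, 3.14 and 1.63 CPM with ZnSO4 + PBS, and 4.92, 8.19 and 5.07 CPM with ZnSO4 + Dex. The 2 highest libraries, water + Dex replicate 3 and ZnSO4 + Dex replicate 2, were also the 2 with the most hepatocyte marker RNA, with 339 and 193 CPM of albumin (Alb) against 1.47 to 48.8 CPM in the other 10. The part of liver RNA in the Fabp1 level was not tested. Dex under ZnSO4 gave an LFC of 1.29 (SE 0.51, adjusted p = 0.129), or an adjusted p of 0.0447 in a fit of the ZnSO4 libraries alone, where 9.23% of all genes were called. That LFC was 1.01 (adjusted p = 0.323) without ZnSO4 + Dex replicate 2. Dex in water gave an LFC of 0.61 (SE 0.49, adjusted p = 0.507) with all libraries. Without water + Dex replicate 3 the latter was -0.16 (adjusted p = 0.898).

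The last group rebuilds triglyceride. Mogat2 encodes the monoacylglycerol acyltransferase that makes diacylglycerol in the enterocyte, and Dgat1 and Dgat2 encode 2 unrelated enzymes that add the third acyl chain. Dgat2 measured 126, 152 and 138 CPM with water + PBS, 275, 280.4 and 308 CPM with water + Dex, 163, 91.9 and 92.3 CPM with ZnSO4 + PBS, and 229, 139 and 236 CPM with ZnSO4 + Dex. Every water + Dex library was above every other library, and the Dex libraries under ZnSO4 overlapped their PBS controls through replicate 2 only. With Dex in water Dgat2 rose with an LFC of 1.05 (SE 0.23, adjusted p = 0.0134), a fold of 2.07. With Dex under ZnSO4 it rose with an LFC of 0.80 (SE 0.23, adjusted p = 0.0406), a fold of 1.74. Without ZnSO4 + Dex replicate 2 the 2 LFCs were 1.05 (adjusted p = 0.00429) and 1.01 (adjusted p = 0.00896). The call in water was lost without water + Dex replicate 3 (adjusted p = 0.0567) and without water + PBS replicate 1 (adjusted p = 0.0600). The call under ZnSO4 was lost in 10 of the 12 fits that left out a library, with an adjusted p of up to 0.138, and in a fit of the ZnSO4 libraries alone (adjusted p = 0.139). ZnSO4 under Dex gave Dgat2 an LFC of -0.52 (SE 0.23, adjusted p = 0.250) and the interaction one of -0.25 (SE 0.33, adjusted p = 0.971). Dgat2 is also expressed in adipocytes. The summed level of 6 adipocyte markers, such as Adipoq and Plin1, was 24.7 to 177 CPM with water + PBS, 122 to 391 CPM with water + Dex, 55.4 to 339 CPM with ZnSO4 + PBS, and 13.1 to 263 CPM with ZnSO4 + Dex. In water + PBS, water + Dex and ZnSO4 + PBS the library with the most adipocyte markers also had the most Dgat2 (152, 308 and 163 CPM), and in ZnSO4 + Dex the library with the fewest did (236 CPM, against 229 CPM in replicate 1). Their part in the Dgat2 level was not tested.

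Mogat2 and Dgat1 moved little. Mogat2 measured 228, 225 and 223 CPM with water + PBS, 215, 256 and 225 CPM with water + Dex, 245, 186 and 207 CPM with ZnSO4 + PBS, and 184, 113 and 213 CPM with ZnSO4 + Dex. Its lowest library was again ZnSO4 + Dex replicate 2, and the other values stayed within 184 to 256 CPM. The LFC with Dex in water was 0.04 (SE 0.18, adjusted p = 0.925), and with ZnSO4 under Dex -0.45 (SE 0.19, adjusted p = 0.216), or -0.22 (adjusted p = 0.394) without that library. Dgat1 measured 238, 265 and 267 CPM with water + PBS, 240, 314 and 268 CPM with water + Dex, 308, 258 and 267 CPM with ZnSO4 + PBS, and 251, 200.1 and 297 CPM with ZnSO4 + Dex. All 4 groups overlapped. The LFCs of Dgat1 in the 4 single-treatment comparisons ran from -0.15 to 0.11, each with an SE of 0.14 and an adjusted p of at least 0.551.

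The pattern of each gene across the 12 libraries was set beside that of the other genes with a mean of at least 10 CPM, by the root mean square of the difference between centred log2 CPM values. Mogat2 had the closest neighbours, Tm6sf2 at 0.0686 and Iqgap2 at 0.0720, and Tm6sf2 is itself a gene of lipoprotein export in the list below. The nearest genes of Apob included Gal3st2 and Anpep, and those of Apoa1 included Slc6a19 (0.126) and Treh. Fabp2 was nearest to Slc22a4 (0.156), Slc15a1 and Alpi, and Mttp to B4galt1 (0.169), Slco2a1 and Sptlc2. Anpep and Alpi are among the 10 enterocyte markers. Dgat2 was nearest to Gata6 (0.164), Tmc5 and Slc52a3, and Apoc3 to Utp14b (0.188), Gpt and Ormdl3. The nearest genes of Dgat1 included Lypla2 and Ptprf. No gene came close to Apoa4 or Fabp1, whose nearest were Bst1 at 0.558, before Asah2 and Creb3l3, and Defa-ps6 at 0.521, before Pla2g12a and Jaml. Among the 10 themselves, the most alike pair was Mogat2 and Dgat1 (0.185), then Apob and Apoa1 (0.256). All 12 libraries enter each of these values, so the low values of ZnSO4 + Dex replicate 2 are part of the likeness.

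Other genes of the pathway were read from 5 lists, with calls over all 15938 genes. Of all genes, 9.93% were called with Dex in water and 13.7% with Dex under ZnSO4. For ZnSO4 the shares were 4.66% with PBS and 4.37% under Dex. In the list of other chylomicron assembly and export genes, 17 of 20 were tested and 1 was called with Dex in water, Apobec1, which encodes the enzyme that edits the Apob transcript to the short, intestinal form of the protein. Apobec1 measured 38.6, 47.1 and 45.3 CPM with water + PBS and 133, 128 and 146 CPM with water + Dex. The groups were far apart, with an LFC of 1.63 (SE 0.17, adjusted p = 1.1e-04). It rose again with Dex under ZnSO4, from 44.7, 41.1 and 38.8 CPM to 109, 69.9 and 125 CPM (LFC 1.28, SE 0.17, adjusted p = 4.4e-04). Without ZnSO4 + Dex replicate 2, Sar1b, a GTPase of the vesicles that carry the particle to the Golgi, was called upwards too in both. ZnSO4 gave no call in this list with either injection, and the median LFC of ZnSO4 under Dex was -0.24, against 0.01 for all genes. Without ZnSO4 + Dex replicate 2, Sec24c, a coat protein of those vesicles, was called downwards with ZnSO4 and PBS.

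In triglyceride resynthesis, 15 of 17 genes were tested. Lpin1, a phosphatidic acid phosphatase, rose with Dex from 19.2, 17.6 and 13.3 CPM to 38.8, 31.7 and 44.9 CPM in water (LFC 1.20, adjusted p = 0.00576) and 2.83-fold under ZnSO4 (adjusted p = 0.00108). Agpat2, an acyltransferase one step earlier, fell with Dex, by an LFC of -0.52 in water (adjusted p = 0.0316) and -0.61 under ZnSO4 (adjusted p = 0.0110). Agpat4 fell with ZnSO4, by an LFC of -0.54 with PBS (adjusted p = 0.0426) and -0.52 under Dex (adjusted p = 0.0484), and without water + Dex replicate 3 neither was called (adjusted p = 0.0534 and 0.180), nor was the latter without ZnSO4 + Dex replicate 2 (adjusted p = 0.0866). The call of Agpat2 in water was also lost without water + Dex replicate 3 (adjusted p = 0.115). Of 11 tested genes of uptake and activation, Slc27a2, a fatty acid transporter and acyl-CoA synthetase, rose with Dex in water (LFC 0.42, adjusted p = 0.0484) and under ZnSO4 (LFC 0.80, adjusted p = 9.7e-04), where the call in water was lost without ZnSO4 + Dex replicate 2 (adjusted p = 0.0543) or water + Dex replicate 3 (adjusted p = 0.192). Acsl5, an acyl-CoA synthetase, fell with ZnSO4 under Dex (LFC -0.69, adjusted p = 0.0451), and without ZnSO4 + Dex replicate 2 its adjusted p was 0.0574, and without water + Dex replicate 3 it was 0.124.

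Lipid droplets hold the triglyceride that is not exported at once, and 20 of 22 genes of this list were tested. With Dex in water 3 were called upwards and 2 downwards, where 9.93% of all genes were called. Pnpla2, the main triglyceride lipase of droplets, rose from 123, 141 and 109 CPM to 199, 207 and 224 CPM (LFC 0.75, adjusted p = 9.1e-04). Plin2, a droplet coat protein, fell from 76.7, 65.7 and 53.7 CPM to 33.8, 42.1 and 38.5 CPM (LFC -0.78, adjusted p = 0.00294). These 2 groups of libraries did not overlap for either gene. Ces1f, a carboxylesterase, rose (LFC 0.91, adjusted p = 0.00291), and so did Plin4 (LFC 1.88, adjusted p = 0.0105), a coat protein that is abundant in adipocytes. The adipocyte markers, at 122 to 391 CPM in water + Dex and 24.7 to 177 CPM in water + PBS, overlapped between these groups, and their part in the Plin4 level was not tested. The fifth, Lipa, the lysosomal acid lipase, was downregulated, a call that was lost without water + Dex replicate 3. Under ZnSO4 Dex gave 2 upwards and 4 downwards, where 13.7% of all genes were called. Among those downwards, Plin2 had an LFC of -1.02 (adjusted p = 3.7e-04) and Lipa one of -1.04 (adjusted p = 6.5e-04). Lipe, the hormone-sensitive lipase, had one of -1.12 (adjusted p = 0.00195). ZnSO4 raised Ces1f with PBS (LFC 0.63, adjusted p = 0.0418, or 0.0607 without water + Dex replicate 3) and under Dex (LFC 0.62, adjusted p = 0.0443, or 0.0769 without ZnSO4 + Dex replicate 2 and 0.157 without water + Dex replicate 3). It lowered Plin3 under Dex (LFC -0.87, adjusted p = 0.0130, or 0.0514 without water + Dex replicate 3).

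Among 24 transcription factors and coregulators of the enterocyte, Dex in water called 5 upwards (Hnf4g, Gata6, Ppara, Ppargc1a and Nr1h4). It called 5 downwards (among them Hnf4a, Cdx2, Nr2f6 and Nr2f2), and 9.93% of all genes. Dex under ZnSO4 called those 10 in those directions, and 13.7% of all genes. Both counts were as large without ZnSO4 + Dex replicate 2 (11.4% and 11.5% of all genes) and without water + Dex replicate 3. Ppara, a fatty acid receptor, rose from 29.4, 18.6 and 24.4 CPM to 81.7, 82.0 and 89.9 CPM in water (LFC 1.81, adjusted p = 2.8e-05) and by an LFC of 2.00 under ZnSO4. Hnf4g rose from 290, 230 and 223 CPM to 632, 686 and 629 CPM (LFC 1.39, adjusted p = 8.5e-04), while its relative Hnf4a fell from 940, 858 and 1097 CPM to 589, 660.2 and 642 CPM. Cdx2, an intestinal identity factor, fell from 243, 216 and 206 CPM to 122, 129 and 125 CPM (LFC -0.82, adjusted p = 1.2e-04). Nr2f6 fell by an LFC of -0.67 (adjusted p = 8.4e-04). ZnSO4 raised Ppargc1a, a coactivator, with PBS from 20.5, 19.3 and 17.3 CPM to 30.2, 33.1 and 34.0 CPM (LFC 0.77, adjusted p = 0.00989), and Nr1h3, a sterol receptor, under Dex (LFC 0.43, adjusted p = 0.0442, or 0.0785 without ZnSO4 + Dex replicate 2 and 0.157 without water + Dex replicate 3). Left without ZnSO4 + Dex replicate 2, the LFCs of Dex under ZnSO4 were 1.49 for Apobec1, 1.25 for Lpin1, -1.12 for Plin2 and 2.10 for Ppara, each still called (adjusted p of at most 0.00288). The 10 fat absorption genes and these lists were tested in 1 fit, so the values stand on the same scale.

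**Figure D5:**
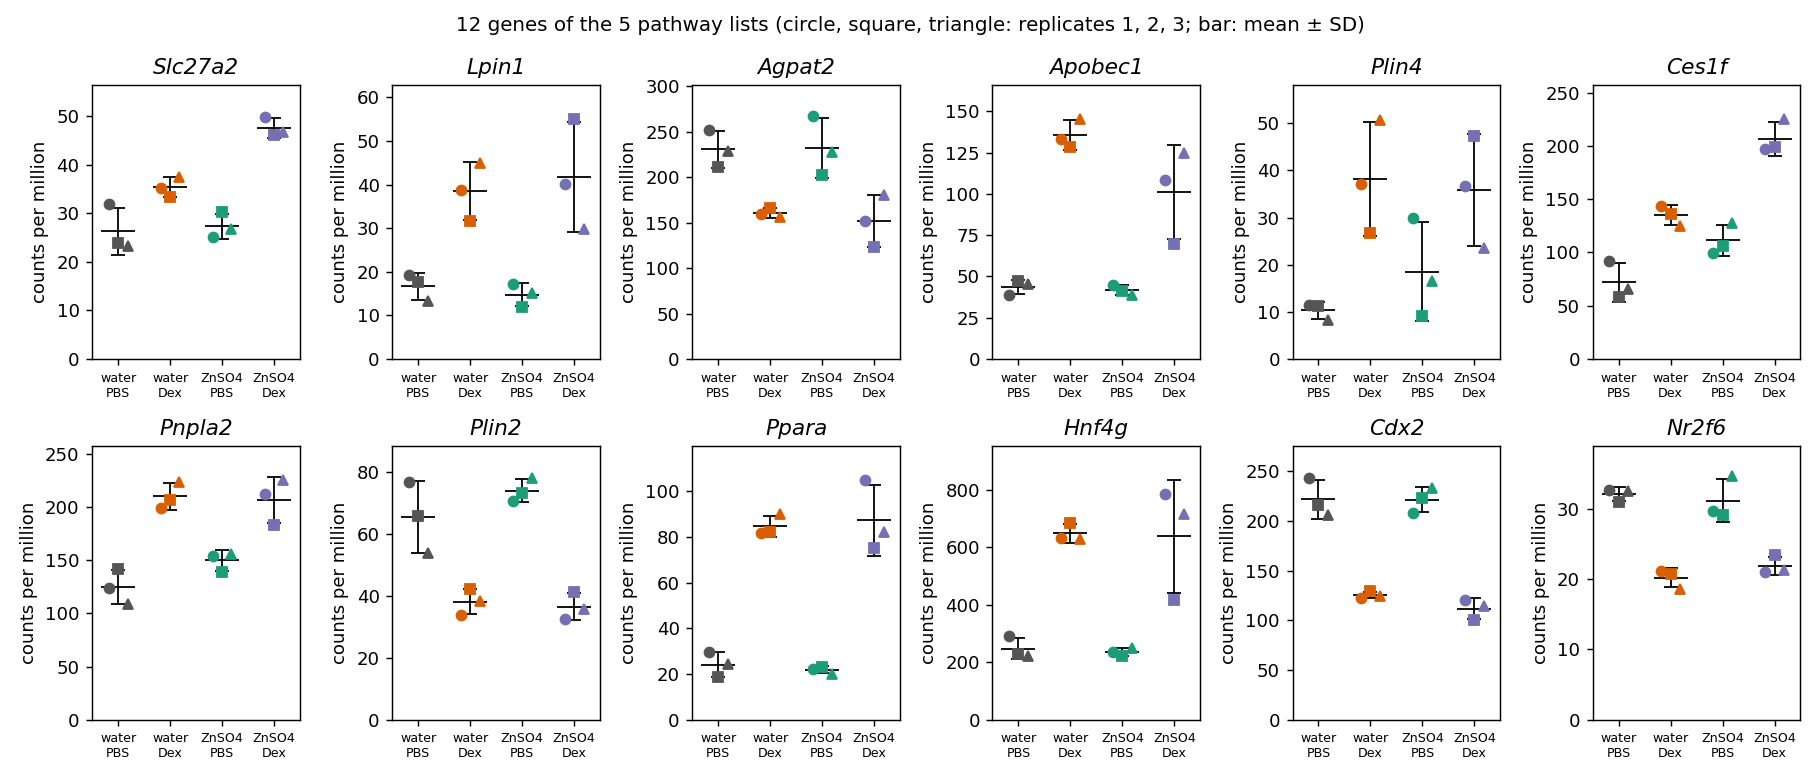
CPM of 12 genes of the 5 pathway lists (vertical axes, linear from 0) in the 4 groups, with circle, square and triangle for replicates 1, 2 and 3 and a bar for the mean ± SD. Apobec1, Ppara and Hnf4g are higher and Plin2, Cdx2 and Nr2f6 lower in the Dex groups of both drinks, with Apobec1 at 128 to 146 CPM in water + Dex against 38.6 to 47.1 CPM in water + PBS.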

How the data were processed

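Ileum RNA of 12 mice was extracted with the RNeasy Mini Kit and sequenced single-end on an Illumina NextSeq from stranded TruSeq libraries. The authors trimmed reads with Trimmomatic, aligned them to mm10 with HISAT2 (2.0.4), used SAMtools, and counted reads per gene with featureCounts, leaving out reads that map to several places. The deposited values are these raw counts, not normalized. The annotation release is not given in the sources used here. A PBS volume of 200 µl is given in the methods where the labels write ml.

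Samples were grouped by their titles. Column names were matched to sample titles. Of 54838 genes, 54723 were given a symbol and 54809 a GRCm38 position from GENCODE and the gene name table. Counts were fitted with edgeR 4.0.16 (R 4.3.3, quasi-likelihood) in 1 model of 4 group means after filterByExpr (minimum count 10) and TMM, with Benjamini-Hochberg adjustment over 15938 genes, which held 99.8% of counts. Each comparison of the report was tested. An adjusted p under 0.05 is a call. LFC is log2, with a prior count of 2 for log2 CPM. SE was derived from the test, as the size of the LFC divided by the square root of its F statistic. Alternatives were DESeq2 1.42.0, other scalings and filters, fits of 2 groups, a replicate block and leaving out each library, and for the pathway lists leaving out 2 libraries, chosen after seeing the data. The fit was tested on simulated data.

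The members, gene lists and tests were chosen with earlier results of these data known. The text names all members, the called genes of each pathway list (at most the 4 with the lowest p per list and comparison) and the 3 genes nearest to each member; Sar1b and the remaining called factors and lipases were named after their values were seen. A few genes that this rule would name are not reported here. The labels number the replicates, and the study gives 3 mice a group. Figures were drawn with matplotlib.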

Additional observations from a re-analysis of the deposited data

How the results depend on the processing

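Of the 943 LFCs recomputed under an alternative for 45 LFCs, those of the 10 genes in the 4 single-treatment comparisons and 5 others that the text prints, 883 kept their direction and their side of the threshold, 13 lost the call, 13 gained one and 34 changed sign, none of which was a call. Scaled to enterocyte markers, the LFCs that changed sign were for Dex with water Dgat1 -0.18 and Mogat2 -0.23. For ZnSO4 under Dex, they were Apoa1 0.28, Dgat1 0.36, Fabp1 0.43 and Fabp2 0.11. For Dex under ZnSO4, it was Apoc3 0.0059. For the interaction, it was Dgat2 0.14. Leaving out 1 library at a time, the LFCs that changed sign ran as follows. For ZnSO4 with PBS, Apob -0.039 to 0.13, Apoc3 -0.18 to 0.18 and Mogat2 -0.19 to 0.0067. For Dex with water, Dgat1 -0.029 to 0.18, Fabp1 -0.16 to 0.99 and Mogat2 -0.047 to 0.093. For ZnSO4 under Dex, Apoa1 -0.51 to 0.26, Dgat1 -0.28 to 6.0e-05 and Fabp1 -0.61 to 0.54. For Dex under ZnSO4, Apoa1 -0.37 to 0.40, Apoa4 -1.30 to 0.88, Apob -0.31 to 0.43 and Apoc3 -0.36 to 0.11. For both treatments against water + PBS, Apoa1 -0.11 to 0.66 and Apob -0.23 to 0.50. For the interaction, Dgat2 -0.39 to 0.075. When 1 library was left out, 0 to 2 members were called with Dex in water and with Dex under ZnSO4. With both treatments it was 0 to 3, and with ZnSO4 under either injection 0 to 1. With all libraries, the share of all genes called was 9.93% with Dex in water and 13.7% with Dex under ZnSO4. It was 23.3% with both treatments, 4.66% for ZnSO4 with PBS and 4.37% for ZnSO4 under Dex. Of the fits that left out a library, the share is given above only for ZnSO4 + Dex replicate 2. The ranges of members called therefore cannot be set against the rate in all genes of the same fits. A fit of the water libraries alone called 3 members with Dex (10.5% of all genes). DESeq2 called 1 (Apoc3) with ZnSO4 under Dex (6.44% of all genes). The fit scaled to enterocyte markers, whose share of all genes is not given here, called 1 (Dgat2) with both treatments. Calls gained when a library was left out, beside those in the text, were Apoc3 with ZnSO4 under Dex without ZnSO4 + Dex replicate 3 (adjusted p = 0.0442), and with both treatments Mogat2 without that library and Dgat2 without ZnSO4 + PBS replicate 1 (adjusted p = 0.0466). The causes were not tested.

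Replicate numbers showed no sign of pairing the libraries. Deviations of libraries with the same number had a median correlation of -0.06 over 18 pairs, with a range of -0.36 to 0.46. For other numbers the median was 0.02, with a range of -0.47 to 0.44. Ranges this wide, with 3 libraries a group, cannot exclude a pairing. With the replicate number as a block, the LFCs of Dex under ZnSO4 became -0.0047 for Apoa1 and -0.041 for Apob, and the counts of members called were those of the fit with no block.

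With 3 libraries a group, Apoa4 and Fabp1 had the widest errors (SE up to 0.83 and 0.52 in the single-treatment comparisons). The remaining LFCs of both treatments and of the interaction, which the text does not print, are not in these counts, although the alternatives were planned for every gene in every comparison; their calls enter the counts of members called. The interaction has no fit of fewer groups. The lists without 2 libraries were chosen after seeing the data.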
